A study of Mus musculus with 4 samples.

Results

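The cells described here were type 1 innate lymphoid cells (type 1 ILCs) of the mouse liver, 129 cells of the 25161 that passed filtering and of the 28525 with a barcode. A cell was a member if it held at least 200 detected genes and at most 10% mitochondrial transcripts, at least 1 UMI of the natural cytotoxicity genes Ncr1 and Klrb1c together, and at least 2 UMIs of Cxcr6, Cd200r1, Itga1 and Tnfsf10 together. It also held at most 1 UMI of the conventional NK genes Eomes, Klra8, Klra4 and Itga2 together, at most 1 of the cycling genes Mki67 and Top2a together, and none of Cd3d, Cd3e, Cd3g, Cd79a and C1qa. A UMI is a molecular tag that marks 1 captured transcript. Because measured UMIs chose the members, levels of the genes of the rule are given as description and carry no test.

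All 4 libraries were 10x 3' single-cell libraries of male mice, 8 weeks of age, that had been given MC38 colorectal cancer cells of mouse origin to study how surgical stress promotes metastasis to the liver. The liver was harvested 3 weeks later, and magnetic beads against CD45 enriched its immune cells from the non-parenchymal fraction. Sed denotes 2 libraries of sedentary mice, and Ex denotes 2 libraries of mice with preoperative exercise. Tumour and surgical stress were shared by both groups, and no group without them was analysed here. The labels give neither a strain nor the exercise protocol used here, and do not say that each library came from a separate animal, so that p-values measure only the spread between these libraries.

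Type 1 ILCs and conventional NK cells are related lymphocytes that both carry activating receptors such as NKp46 (Ncr1) and NK1.1 (Klrb1c) and depend on the transcription factor T-bet (Tbx21). Type 1 ILCs stay in the tissue, carry CD49a (Itga1), CXCR6 and TRAIL (Tnfsf10), and lack Eomes, whereas conventional NK cells circulate, carry CD49b (Itga2) and Ly49 receptors (Klra genes), and store granzyme A and perforin. CXCR6 binds CXCL16, a chemokine displayed in liver sinusoids, and TRAIL can kill target cells that carry its death receptors.

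Promoter windows are shown for the genes that the levels below turn on: Tmem176a and Tmem176b, 2 neighbouring genes for membrane channel-like proteins that had the largest ratios of type 1 ILCs to NK cells among the 16 genes described as higher below, Il7r, and the marker Cxcr6. Each is 250 bases before to 50 bases after a transcript start of RefSeq on GRCm38.p6, 5′ to 3′ on the gene's strand, and 14 of the 16 genes looked up had one. The Tmem176a window lies at chr6:48841233-48841532 on the plus strand and the Tmem176b window at chr6:48841088-48841387 on the minus strand, the first of 2 and of 3 starts listed. The genes themselves span bases 48840919 to 48847071 (Tmem176a) and 48833818 to 48841496 (Tmem176b) in GENCODE vM21, and so overlap on opposite strands. Capitals mark the 155 bases that the 2 windows share on opposite strands. In the Il7r window, chr15:9529827-9530126 on the minus strand, and the Cxcr6 window, chr9:123806227-123806526 on the plus strand, capitals mark a RUNX motif.
Tmem176a: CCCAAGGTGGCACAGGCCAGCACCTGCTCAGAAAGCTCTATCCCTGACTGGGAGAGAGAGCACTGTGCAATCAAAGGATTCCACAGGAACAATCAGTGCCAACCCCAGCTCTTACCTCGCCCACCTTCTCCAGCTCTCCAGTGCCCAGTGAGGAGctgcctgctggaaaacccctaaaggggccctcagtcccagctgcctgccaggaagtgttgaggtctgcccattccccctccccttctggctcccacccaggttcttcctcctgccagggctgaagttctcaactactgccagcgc
Tmem176b: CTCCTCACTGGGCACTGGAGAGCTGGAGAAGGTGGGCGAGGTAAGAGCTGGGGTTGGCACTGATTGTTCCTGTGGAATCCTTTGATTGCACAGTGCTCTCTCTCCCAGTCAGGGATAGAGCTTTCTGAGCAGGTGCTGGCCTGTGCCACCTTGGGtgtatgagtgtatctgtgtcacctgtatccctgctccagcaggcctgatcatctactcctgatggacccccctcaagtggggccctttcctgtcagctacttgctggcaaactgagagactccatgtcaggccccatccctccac
Il7r: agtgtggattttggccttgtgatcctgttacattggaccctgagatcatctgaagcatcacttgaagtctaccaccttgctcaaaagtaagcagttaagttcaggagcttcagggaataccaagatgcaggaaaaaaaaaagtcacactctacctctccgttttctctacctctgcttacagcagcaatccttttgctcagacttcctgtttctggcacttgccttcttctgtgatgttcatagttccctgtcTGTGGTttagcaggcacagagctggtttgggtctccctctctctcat
Cxcr6: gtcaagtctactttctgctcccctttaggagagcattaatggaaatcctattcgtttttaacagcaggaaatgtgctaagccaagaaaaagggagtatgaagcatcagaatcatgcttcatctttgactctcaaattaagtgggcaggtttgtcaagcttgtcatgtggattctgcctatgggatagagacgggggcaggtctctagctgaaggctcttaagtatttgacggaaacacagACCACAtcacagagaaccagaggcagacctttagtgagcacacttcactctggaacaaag
The motifs searched on both strands were the RUNX core TGTGGT, found in 16.8% of all 32851 windows, the T-box core GGTGTG, found in 19.1%, and the ROR site AGGTCA, found in 16.3%. No T-box or ROR match lay in the 4 windows shown, and the 2 Tmem176 windows held no RUNX match. A match is a description of the letters only.

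The 4 libraries held 13 type 1 ILCs in Sed 1, 44 in Sed 2, 27 in Ex 1 and 45 in Ex 2, with 100191, 170517, 109850 and 182811 UMIs in sum. The median depth of a type 1 ILC was 5538, 3738, 3844 and 3841 UMIs in that order, against 3482 to 3929 in all kept cells. The mitochondrial share over all kept cells was 2.61% and 2.97% in the Sed libraries and 3.92% and 4.36% in the Ex libraries, while in type 1 ILCs it was 3.28%, 3.66%, 3.55% and 3.42%. The libraries shared 83 cell barcodes over all pairs. Of the type 1 ILC barcodes, 1 also occurred in another library, but none was a type 1 ILC barcode in another library. Of the type 1 ILCs, 9 held 10 or more UMIs of marker genes of another cell type: 5 of neutrophils, 2 of endothelial cells, 1 of B cells and 1 of macrophages. Of these 9 cells 3 lay in Sed 1, where they held 55.7% of the UMIs, 6 lay in Sed 2, where they held 27.4%, and none in the Ex libraries. The genes called between Ex and Sed, and levels that move most, are given with and without them.

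**Figure D1:**
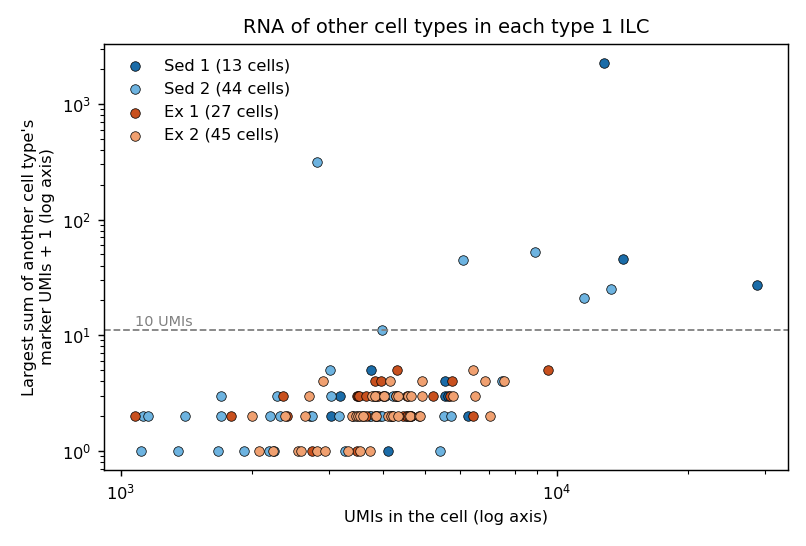
Each point is 1 type 1 ILC, with its UMIs on the x axis and, on the y axis, the largest of its marker UMI sums for B cells, macrophages, neutrophils, endothelial cells, hepatocytes and red cells plus 1, both on log axes, coloured by library. The 9 cells at or above the dashed line of 10 UMIs all belong to the Sed libraries, and the deepest cell holds 28832 UMIs.

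One of the 9 cells, in Sed 1, held 28832 UMIs, 28.8% of the type 1 ILC UMIs of its library. It carried 2164 of the 2173 UMIs of Gzmd, Gzme, Gzmf and Gzmg found in all 129 cells, 343 of the 491 Gzmc UMIs, 387 UMIs of Spp1 and 23 of the plasmacytoid dendritic cell genes Siglech and Ccr9. The granzymes C to G are close copies of each other, so their split is uncertain.

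The label was set against markers the rule did not use. Of 11 further T cell genes, Cd8a, Cd5 and Cd6 had no UMI in the 129 cells, which allows up to 5.33 CPM over all of them, where CPM is the number of UMIs of a gene per 1000000 UMIs. The T cell receptor alpha constant gene Trac had 3 UMIs, Cd4 had 3 and Trdc had 8, while Trbc1 stood at 439, 481, 528 and 542 CPM in Sed 1, Sed 2, Ex 1 and Ex 2, beside 410 ± 79.2 CPM (SD, n = 4 libraries) in NK cells. Trbc2, at 230, 551, 410 and 558 CPM, and Thy1, at 240, 164, 255 and 323 CPM, were also present. The T cell receptor gamma constant segment Tcrg-C4, outside this list, had 101 UMIs and is described below. Of 12 genes of type 2 and type 3 ILCs, 7 had no UMI, among them Il1rl1, Il13 and Il22, and the list summed to 99.8 and 11.7 CPM in the Sed libraries and 0 in the Ex libraries. Markers of neutrophils summed to 23036 and 2158 CPM in Sed 1 and Sed 2, and to 293 and 96.9 CPM without the 9 cells.

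The 4 markers that chose the cells were spread unevenly over them. Itga1 was found in 76 of the 129 cells, Cxcr6 in 75, Tnfsf10 in 71 and Cd200r1 in 52. Only 3 cells, all in Ex 2, had a UMI of all 4, 37 had 3 of them, 62 had 2 and 27 had 1. Both receptors, Ncr1 and Klrb1c, were seen in 91 cells. Cxcr6 stood at 89.8 and 135 CPM in the Sed libraries and at 310 and 405 CPM in the Ex libraries, and the groups did not overlap, which also held for 43.9% of all 2228 genes tested. Of its 32 Sed UMIs, 18.8% lay in the 9 cells. Itga1 read 99.8, 246, 273 and 312 CPM, Cd200r1 29.9, 170, 100 and 181 CPM, and Tnfsf10 110, 223, 200 and 224 CPM in Sed 1, Sed 2, Ex 1 and Ex 2. Sed 1 was the lowest library for all 4 genes with all cells. It read, without the 9 cells, 113 CPM for Cxcr6, 135 for Itga1, 67.7 for Cd200r1 and 226 for Tnfsf10, and for Tnfsf10 it was then no longer the lowest.

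Levels of Il7r, Tmem176b and Gzma were also read on both sides of the rule, with the cells of all libraries pooled. The 45 cells with a marker sum of 2 held Il7r at 254 CPM, Tmem176b at 508 CPM and Gzma at 3634 CPM, whereas the 78 cells with a sum of 1 and few NK transcripts held them at 153, 270 and 5755 CPM. The 30 cells with a sum of 3 had 377, 551 and 935 CPM, and the 54 cells with a sum of 4 or more had 165, 408 and 2015 CPM. The levels thus did not run in order with the sum. Sed 1, Sed 2, Ex 1 and Ex 2 gave 20, 31, 12 and 15 of the 78 cells. They gave 7, 26, 8 and 4 of the 45 cells, and 1, 12, 11 and 30 of the 54. The part of this uneven mix in the levels was not tested. At the other edge, 7 members had 1 UMI of the NK genes, and the 5 cells with 2 such UMIs had Gzma at 9033 CPM and Tmem176b at 36.4 CPM. A larger set of 285 cells met the rule except that they held a UMI of Cd3d, Cd3e, Cd3g, Cd79a or C1qa. These cells had Il7r at 219, Tmem176b at 246 and Gzma at 2660 CPM, so such levels were not particular to the members.

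Type 1 ILCs were first set against the 378 conventional NK cells of the same libraries, chosen by the mirrored rule with at least 2 NK gene UMIs and at most 1 marker UMI. Since this is the contrast that the rule used, the levels are a description and no test was made. Of 1521 genes that reached 100 CPM in either population and lay outside the rule, 16 (1.05%) were at least 2 times higher in type 1 ILCs in each of the 4 libraries and 6 (0.394%) at least 2 times lower. For this the lower population was set to 3 counts in any library where it had fewer. The count was repeated without the 9 cells and without NK cells holding 10 or more UMIs of another cell type's markers. Then 25 and 10 genes met the same condition, 14 and 4 of them shared with the first count. Ier3 and Ifi27l2a dropped out on one side and Klra1 and Klra3, which had no UMI in Sed 1, on the other.

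Tmem176b, Tmem176a, Ckb and Il7r had the largest ratios of mean levels among the 16 genes. Il7r, the receptor chain for interleukin 7, stood at 409, 147, 237 and 252 CPM in the type 1 ILCs of Sed 1, Sed 2, Ex 1 and Ex 2, and at 1.93, 13.5, 13.6 and 2.73 CPM in the NK cells. Its mean was 261 ± 109 CPM (SD, n = 4) against 7.95 ± 6.50 CPM, a ratio of 32.8. Every type 1 ILC library lay above every NK library. Tmem176b had 519, 586, 537 and 306 CPM in type 1 ILCs and at most 19.3 CPM in NK cells, a ratio of means of 85.7. Tmem176a, which shares the promoter bases shown above, had 369, 340, 482 and 306 CPM against at most 15.5 CPM, a ratio of 44.9. Sed 1 read 767 CPM for Il7r, 970 for Tmem176b and 541 for Tmem176a without the 9 cells, further above NK cells.

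Ckb, the brain-type creatine kinase, had a mean of 225 ± 83.8 CPM in type 1 ILCs and 5.67 ± 3.52 CPM in NK cells, a ratio of 39.6. Inpp4b, a phosphatase for membrane inositol lipids, had 141 ± 83.0 CPM against 6.44 ± 3.72 CPM, and Tcrg-C4, a T cell receptor gamma constant segment, had 164 ± 83.9 CPM against 6.38 ± 8.82 CPM. Cd226, the activating receptor DNAM-1, had 277 ± 124 CPM against 21.8 ± 5.87 CPM. With and without the 9 cells, Sed 1 read 199.6 and 383 CPM for Ckb, 39.9 and 67.7 for Inpp4b, 49.9 and 113 for Tcrg-C4, and 110 and 203 for Cd226. Smaller ratios were seen for Rbpj, the transcription factor of Notch signalling (5.45), Klrb1b, an inhibitory lectin receptor (3.79), Tnfaip8 (3.23), Cxcr3, a receptor for interferon-induced chemokines (3.02), Trip4 (3.85) and Ltb, lymphotoxin beta (2.66). Ier3 (10.9) and Ifi27l2a (2.70) also met the condition, but Ier3 was at 0 CPM in both Sed libraries without the 9 cells and Ifi27l2a was higher in B cells, at 874 CPM, than in type 1 ILCs, at 490 ± 479 CPM.

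On the NK side, Khdc1a and the Ly49 receptor Klra1 had no UMI in any type 1 ILC, so that NK cells were at least 36.6-fold and 26.4-fold higher, at 195 ± 124 and 141 ± 21.6 CPM, with the floor of 3 counts taken over all 4 libraries. The Ly49 genes Klra7 and Klra3, close copies of the rule's Klra genes, had 12.8 ± 19.4 and 25.7 ± 21.4 CPM in type 1 ILCs against 442 ± 155 and 154 ± 33.6 CPM in NK cells. Sh2d1a, the SAP adaptor of SLAM family receptors, had 25.8 ± 21.0 against 182 ± 9.33 CPM.

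Granzyme A separated the populations by quantity. Gzma stood at 2056, 4047, 1311 and 1138 CPM in type 1 ILCs and at 16771, 10518, 6729 and 8305 CPM in NK cells, a ratio of 4.95 in favour of NK cells, with no overlap. The Sed type 1 ILCs read 3924 and 5216 CPM without the 9 cells, still below every NK library. Prf1, perforin, was at 908, 123, 264 and 317 CPM against 1020, 860, 781 and 1032 CPM, and 71.4% of its UMIs in the Sed type 1 ILCs lay in the 9 cells. Without them Prf1 read 271 and 161 CPM in Sed. Gzmb, granzyme B, showed no such gap: its 1417, 2182, 1183 and 2850 CPM in type 1 ILCs overlapped the 2199, 1503, 1218 and 1037 CPM of NK cells. Ifng, interferon gamma, had 190, 123, 228 and 394 CPM in type 1 ILCs, and Sed 1 read 428 CPM without the 9 cells. The chemokine gene Xcl1, which draws cross-presenting dendritic cells, had a mean of 1714 ± 768 CPM against 735 ± 588 CPM, and its lowest library, Sed 1, read 569 CPM with and 1285 CPM without the 9 cells.

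Of the 17 further type 1 ILC identity genes, 10 reached 100 CPM, 7 of these were at least 2 times higher in every library and none was lower: Il7r, Tmem176a, Tmem176b, Ckb, Inpp4b, Cxcr3 and Ltb. Below that level, Podnl1 had 75.4 ± 21.7 CPM against 3.43 ± 2.48 CPM and Rora, a retinoid-related orphan receptor, 83.6 ± 26.8 CPM against 5.63 ± 9.13 CPM. Zfp683, the residency factor Hobit, had 4 UMIs in all type 1 ILCs and none in NK cells, and so could not be ranked at this depth. Of 18 further NK identity genes 15 reached 100 CPM and 3, Klra3, Klra7 and Gzma, were at least 2 times lower in every library. The median log2 ratio of type 1 ILCs to NK cells was 2.87 over the first list and -1.69 over the second, with 0.07 over all 1521 genes. Of 6 egress genes, S1pr5, a sphingosine receptor by which NK cells leave tissue, had no UMI in type 1 ILCs against 47.2 ± 29.2 CPM. Klf2, which drives egress genes, had 157 ± 82.3 against 560 ± 232 CPM. For Klf2, Sed 2 read 188 CPM with and 96.9 CPM without the 9 cells.

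**Figure D2:**
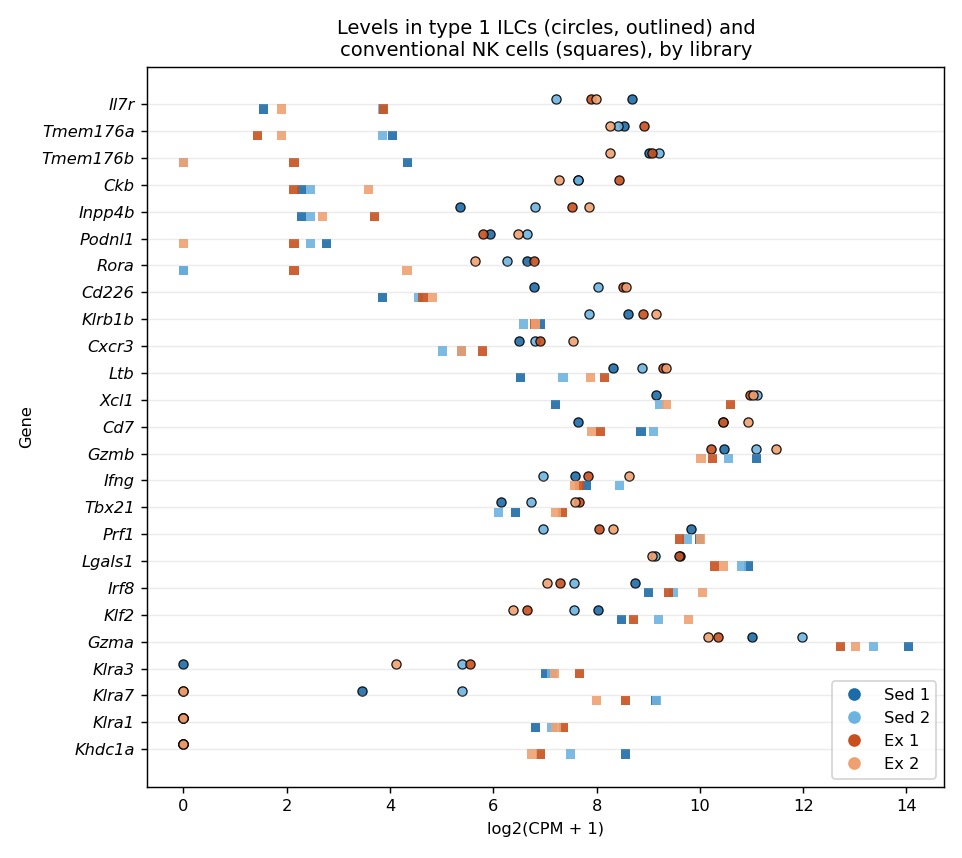
Each row is a gene and each point its log2(CPM + 1) in 1 library, as outlined circles for type 1 ILCs and squares for conventional NK cells, coloured by library. Circles lie to the right of the squares for Il7r, Tmem176a and Tmem176b and to the left for Gzma and the Klra genes, while for Gzmb and Tbx21 they overlap.

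Shares of cells gave the same order once each cell was thinned to 2000 UMIs, which left out 11 type 1 ILCs and 33 NK cells that were shallower. A Gzma UMI was found in 35.6% of the 118 thinned type 1 ILCs, 90.7% of the NK cells and 1.46% of B cells, which should lack it and give the background of free RNA. Before thinning the share in type 1 ILCs was 41.1%, with a median depth of 3844 UMIs against 2279 in B cells. Gzmb was found in 71.2%, 68.1% and 0.44% of the thinned cells of the 3 types, Xcl1 in 85.6%, 46.7% and 0.29%, and Cd7, a surface receptor of lymphocytes, in 83.9%, 38.8% and 0.55%. Tnf was found in 13 of the 118 type 1 ILCs, in 1.45% of NK cells and in 1.17% of B cells. Il7r was found in 31.4% of type 1 ILCs, 0.87% of NK cells and 1.83% of B cells. Ltb was also common in B cells, at 62.8%, beside 66.9% in type 1 ILCs. By library, Gzma was found in 53.9% and 51.4% of thinned type 1 ILCs in Sed 1 and Sed 2, and in 12.0% and 31.1% in Ex 1 and Ex 2. The background in B cells was also higher in Sed, at 4.69% and 1.59%, than in Ex, at 0.28% and 0.27%. These shares pool the cells of 4 libraries and cover no spread between them.

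Granzyme UMIs were spread unevenly over the type 1 ILCs. Gzma had no UMI in 76 of the 129 cells and up to 97 in a single cell, and the 10 cells with most held 53.5% of its UMIs, beside 44.9% for Il7r and 36.7% for Tmem176b. Gzmb was found in 100 cells, with a median of 6 UMIs, and the 10 cells with most held 31.6%. Gzmc was found in 25 cells, and 10 of them held 96.3% of its UMIs. The 37 thinned cells with an Il7r UMI had Gzma in 27.0% (95% exact binomial interval 13.8 to 44.1%) and the 81 without in 39.5% (28.8 to 51.0%). Tmem176a was found in 56.8% (39.5 to 72.9%) against 35.8% (25.4 to 47.2%) and Rora in 24.3% (11.8 to 41.2%) against 9.88% (4.36 to 18.5%). For all 29 genes compared in this way the 2 intervals overlapped. The differences themselves were not tested, since cells are not replicates. Intervals cover counting error only. Cells with an Il7r UMI made up 46.2% of the thinned type 1 ILCs of Sed 1, 25.7% of Sed 2, 32.0% of Ex 1 and 31.1% of Ex 2.

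**Figure D3:**
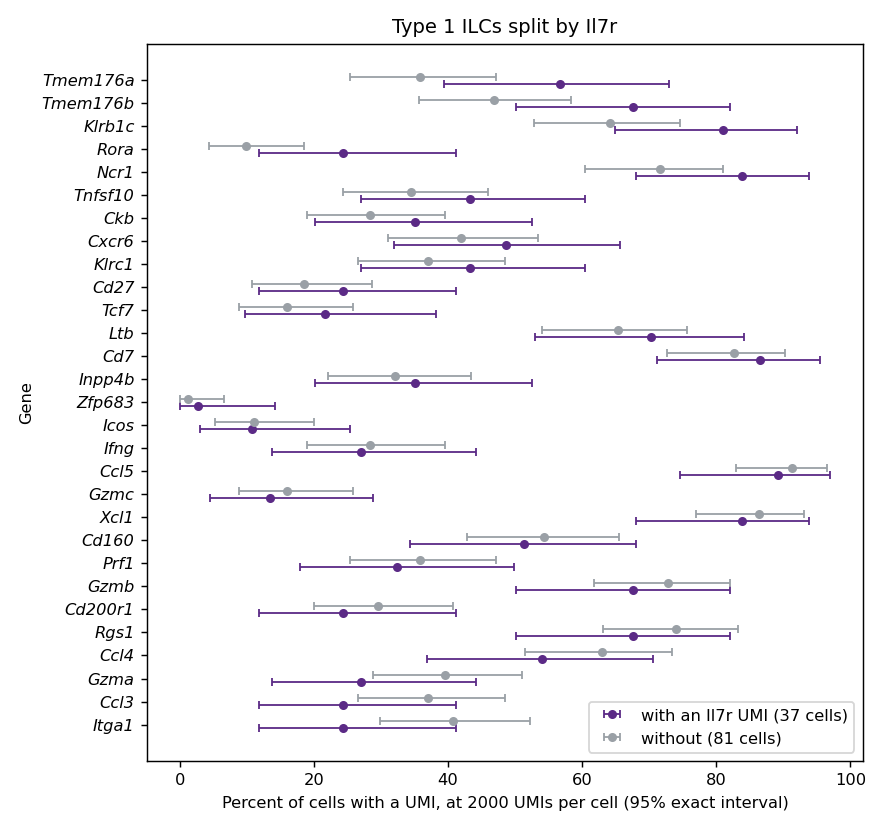
Points give the percent of type 1 ILCs with a UMI of each gene after thinning to 2000 UMIs, for the 37 cells with an Il7r UMI (purple) and the 81 without (grey), with 95% exact binomial intervals that cover counting error only. Genes are ordered by the difference of the 2 shares, from Tmem176a at the top to Itga1 at the bottom, and every pair of intervals overlaps.

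The second question was whether type 1 ILCs were more or less frequent after exercise. They made up 0.179% and 0.579% of the kept cells in the Sed libraries and 0.446% and 1.06% in the Ex libraries. The means were 0.379 ± 0.283% (SD, n = 2) and 0.753 ± 0.435%, a difference of 0.375 points with an exact two-sided permutation p of 0.667, where 2 against 2 libraries cannot go below 0.333. Of type 1 ILCs and NK cells together they were 15.1% and 42.7% in Sed and 14.9% and 32.8% in Ex (exact permutation p = 0.667). The groups overlapped in both shares, and within each group the libraries differed more than the group means did. Bead enrichment and the number of NK cells enter these shares, and their part was not tested.

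**Figure D4:**
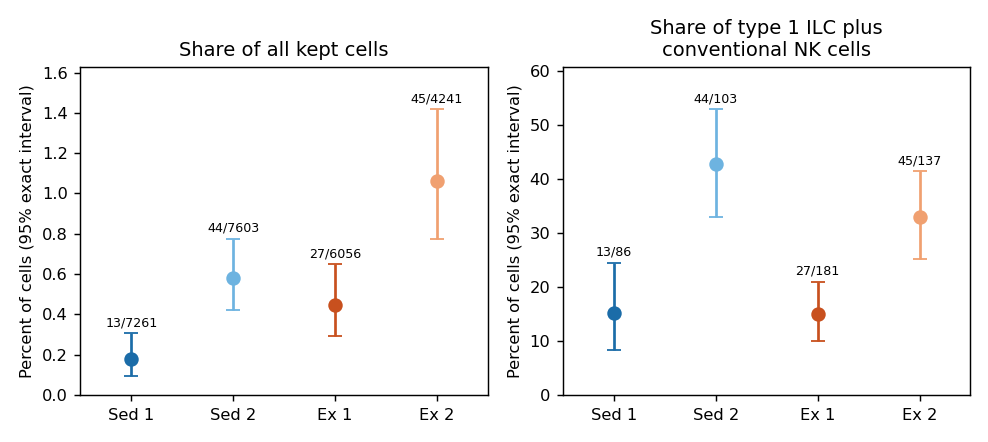
Points give type 1 ILCs as a percent of all kept cells (left) and of type 1 ILCs plus conventional NK cells (right) in each library, with 95% exact binomial intervals and the cell counts above. Sed 2 and Ex 2 lie above Sed 1 and Ex 1 in both panels, and the groups overlap.

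The third question was which genes of type 1 ILCs changed with exercise. UMIs were summed per library, and 2228 genes had enough counts to be tested with the quasi-likelihood test of edgeR and the Benjamini-Hochberg adjustment. At an adjusted p under 0.05, 1 gene (0.0449%) rose and 8 (0.359%) fell from Sed to Ex, with log2 changes given ± SE. The 8 that fell hold several genes known from neutrophils and macrophages: Chil3, a chitinase-like protein, Cxcl2, a chemokine that draws neutrophils, G0s2, an inhibitor of fat breakdown, Slpi, a protease inhibitor, and Msrb1, a methionine sulfoxide reductase. The other 3 were Bst2 (tetherin) and Ifi27l2a, both induced by interferon, and Ly6a (Sca-1).

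Chil3 had 1467 and 921 CPM in the Sed libraries and 0 in both Ex libraries (adjusted p = 4.77e-05, edgeR). Of its 304 Sed UMIs, 298 lay in the 9 cells with markers of other cell types, and without them it stood at 22.6 and 40.4 CPM. Cxcl2 fell from 190 and 282 to 9.10 and 21.9 CPM (log2 change -3.86 ± 0.51, adjusted p = 0.00463, edgeR), and 98.5% of its Sed UMIs lay in the 9 cells. The same share was 100% for G0s2, 94.1% for Slpi and 91.5% for Msrb1. These 5 genes had too few counts to be tested without the 9 cells. The neutrophil genes S100a8 and S100a9, which were not called, had 99.1% and 99.4% of their Sed UMIs there, and the summed level of 7 neutrophil markers was 23036 and 2158 CPM in Sed and 63.7 and 54.7 CPM in Ex.

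Of the Sed UMIs of Bst2, Ly6a and Ifi27l2a, 53.7%, 67.2% and 67.5% lay in the 9 cells. Bst2 fell from 519 and 405 to 127 and 49.2 CPM (log2 change -2.57 ± 0.46, adjusted p = 0.0248, edgeR). Ifi27l2a fell from 988 and 809 to 137 and 27.4 CPM (log2 change -3.68 ± 0.58, adjusted p = 0.0248, edgeR). Without the 9 cells Ifi27l2a read 271 and 525 CPM in Sed, still above both Ex libraries, with a log2 change of -2.52 ± 0.57 and an adjusted p of 0.398 (edgeR). Bst2 read 271 and 355 CPM without them, with an adjusted p of 0.398 (edgeR), and Ly6a changed by -2.72 ± 0.96 on the log2 scale with an adjusted p of 0.836 (edgeR). In NK cells, where 112 of 5004 genes (2.24%) were called, Ifi27l2a fell by 5.22 on the log2 scale.

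The gene that rose was Gm42418, a predicted noncoding RNA whose locus overlaps ribosomal RNA repeats, named because it was the only one and after its values were seen. It took 1.99% and 3.09% of type 1 ILC UMIs in Sed and 7.37% and 8.52% in Ex (log2 change 1.55 ± 0.25, adjusted p = 0.0160, edgeR). Over all kept cells it took 3.24% and 3.26% in Sed and 5.01% and 5.53% in Ex. Without the 9 cells its log2 change was 1.44 ± 0.32 and its adjusted p 0.398 (edgeR).

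Without the 9 cells none of 1877 genes passed the edgeR test, while 107 had an unadjusted p under 0.05. With all cells 224 of 2228 did, and the DESeq2 Wald test called 10 genes, 5 of them shared with edgeR.

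**Figure D5:**
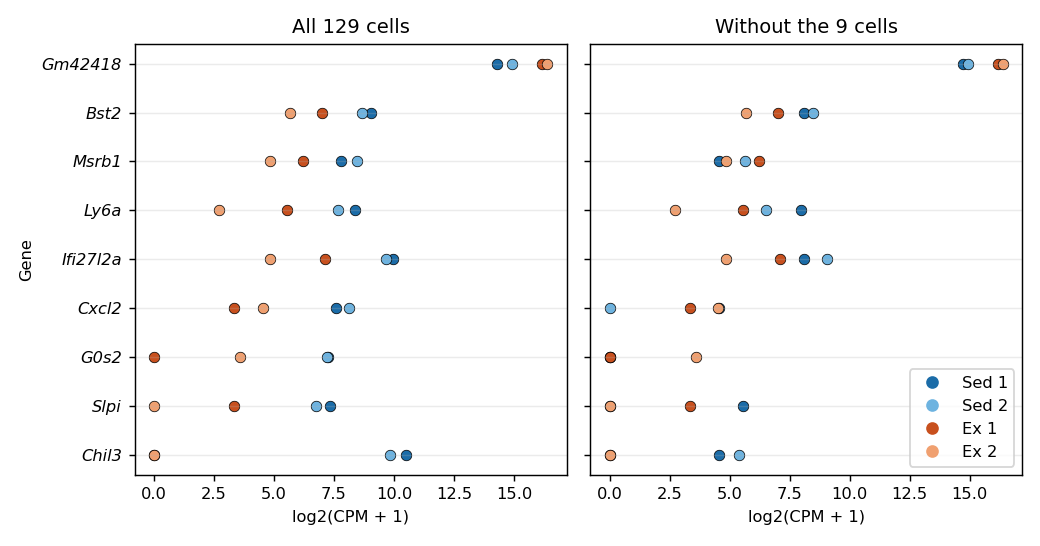
Rows are the 9 genes called between Ex and Sed and points their log2(CPM + 1) in each library, with all 129 cells (left) and without the 9 cells that hold 10 or more UMIs of another cell type's markers (right). On the right the Sed points of Chil3, Slpi, G0s2, Cxcl2 and Msrb1 move down towards or among the Ex points, while those of Bst2, Ly6a and Ifi27l2a stay above them.

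No cytotoxic or effector gene was called, by a test that found 15 of 87 true 2-fold changes in simulated counts. Of 17 cytotoxic and effector genes 13 were tested, and their median log2 change was 0.06 beside 0.01 over all tested genes. Gzma was lower in both Ex libraries than in both Sed libraries, with a log2 change of -1.40 ± 0.35 and an adjusted p of 0.168 (edgeR). Groups without overlap, in either direction, were seen for 43.9% of all 2228 genes tested. Without the 9 cells the Gzma change was -1.92 ± 0.33 (adjusted p = 0.166, edgeR). In NK cells it was -1.05 ± 0.27, where it passed the test (adjusted p = 0.0282, edgeR). Ifng changed by 0.94 ± 0.40 (adjusted p = 0.460, edgeR) and by 0.23 ± 0.47 without the 9 cells. Gzmb changed by 0.06 ± 0.40. Gzmc, at 3833, 41.05, 228 and 410 CPM, had its highest level in the library with the cell of 28832 UMIs. Its log2 change was -2.77 ± 2.55 with all libraries and 1.75 ± 0.54 without the 9 cells (adjusted p = 0.836, edgeR). Without that library, which leaves 1 Sed library, it was 2.95. Of the 100 Gzmc UMIs in the Ex libraries, single cells held 30, 27 and 20.

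Genes of type 1 ILC identity did not pass the test. Of the 17 further type 1 ILC genes 12 were tested and none was called, with a median log2 change of 0.26, or -0.10 without the 9 cells. Il7r changed by -0.25 ± 0.47, Tmem176a by 0.04 ± 0.36, Tmem176b by -0.51 ± 0.36 and Ckb by 0.17 ± 0.42. Of the 14 genes shared by NK cells and type 1 ILCs, 13 had values above 0, beside 1127 of all 2228 genes tested. Their median was 0.61, or 0.37 without the 9 cells, and none was called. Among them Tbx21 had 69.9 and 106 CPM in Sed and 200 and 191 CPM in Ex, a log2 change of 1.01 ± 0.38, or 0.38 ± 0.38 without the 9 cells, when Sed 1 read 158 and Sed 2 145 CPM. Klrc2, an activating lectin receptor, had 110 and 164 CPM in Sed and 310 and 525 CPM in Ex (log2 change 1.49 ± 0.38, adjusted p = 0.168, edgeR). Runx3, a transcription factor of cytotoxic lymphocytes, changed by 1.39 ± 0.42 with an adjusted p of 0.293 (edgeR).

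Other programs were described by their counts. Over all 2228 genes tested, 8 fell at an adjusted p under 0.05 (edgeR) and 1101 were below 0. The median over all genes was 0.01, or 0.03 without the 9 cells. Of 37 interferon-stimulated genes 14 were tested, Bst2 and Ifi27l2a fell, and the median was -0.43, or -0.58 without the 9 cells, when none was called. Of 11 glycolysis genes tested 10 were below 0, with a median of -0.91 that became -0.10 without the 9 cells, and none was called. Gapdh had 1078 and 721 CPM in Sed and 574 and 465 CPM in Ex. Ribosomal protein genes had a median of -0.50 over 77 genes, 75 of them below 0 and none called, and -0.56 without the 9 cells. Of 24 early response genes and 11 heat shock genes tested none was called, with medians of -0.13 and 0.10, and of 68 oxidative phosphorylation genes none, with a median of -0.24.

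The last comparison asked whether the change from Sed to Ex differed between type 1 ILCs and NK cells, with the library as a block. Of 3670 genes tested, 2 (0.0545%) had a different change, both with a higher log2 change in type 1 ILCs than in NK cells. Neither gene was called in type 1 ILCs alone. S100a4, a calcium-binding protein of motile cells, had 848 and 727 CPM in Sed and 1438 and 1001 CPM in Ex in type 1 ILCs, but 632 and 257 CPM in Sed and 123 and 71.0 CPM in Ex in NK cells. Fitted alone, its log2 change was 0.52 ± 0.35 in type 1 ILCs (adjusted p = 0.627, edgeR). In NK cells it was -2.39 ± 0.57 (adjusted p = 0.136, edgeR). In the joint fit the changes differed by 2.77 ± 0.37 on the log2 scale (adjusted p = 0.00134, edgeR). The noncoding RNA AC163354.1 had 409 and 422 CPM in Sed and 574 and 563 CPM in Ex in type 1 ILCs. In NK cells it had 234 and 122 CPM in Sed and 37.5 and 24.6 CPM in Ex. Fitted alone, it changed by 0.34 ± 0.32 in type 1 ILCs (adjusted p = 0.725, edgeR). The NK change was -2.72 ± 0.35 (adjusted p = 5.28e-05, edgeR), and the joint fit gave a difference of 2.95 ± 0.43 (adjusted p = 0.00212, edgeR). For both genes, with all cells, the type 1 ILC levels were higher in both Ex libraries than in both Sed libraries, and the NK levels were lower. Among the 2228 genes tested in type 1 ILCs, 43.9% had groups without overlap in either direction. The Sed levels of AC163354.1 in type 1 ILCs were 564 and 565 CPM without the 9 cells, and its groups overlapped there. Without the cells of either population that hold markers of other cell types, the S100a4 difference was 2.80 ± 1.30 with an adjusted p of 0.972, and that of AC163354.1 was 2.36 ± 0.45 with an adjusted p of 0.00185 (edgeR). Without Ex 1 the differences were 2.89 for S100a4 and 3.25 for AC163354.1, both with an adjusted p of 0.194 (edgeR). Without Ex 2 they were 2.66 and 2.70, both with an adjusted p of 0.997 (edgeR).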

How the data were processed

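The authors deposited 1 matrix of UMI counts per gene and cell barcode for all libraries, made with Cell Ranger 7.0.0 against mm10 (GRCm38) per the submitters' processing notes and with 6.1.1 per the file headers. Of its 51140 columns 28525 carry a barcode, and the other 22615 were not used here. Libraries were told apart by the barcode suffix, taken to follow the row order of the deposited aggregation table. No header states this, which limits every comparison between libraries. The ends of the suffix blocks lay 6 to 71 cells from the break in the levels of the 300 most abundant genes. Whether the aggregation equalised depth is not given in the sources used here.

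Counts were summed per library and population and scaled to CPM. edgeR 4.0.16 (robust quasi-likelihood, TMM, filterByExpr) in R 4.3.3 was the main test and the Wald test of DESeq2 1.42.0 an alternative, with an adjusted p under 0.05. The SE was worked back from the F statistic. The edgeR test of type 1 ILCs was checked on simulated counts of 1994 genes. It called 15 of 87 genes with a true 2-fold change, 67 of 80 with a 4-fold change and 2 of 1827 with none. A gene that was not called may therefore have changed 2-fold. The members and lists were chosen with earlier results of these data known. Named were called genes with at least 10 CPM and no overlap, up to 4 of the highest members of each list and a further set of effector and rule genes, and between populations the 15 largest ratios each way. Doublets were kept in the main values: the Scrublet of scanpy 1.11.5 marked 0.017% and 0.024% of the Ex libraries by its own threshold, against 3.47% and 4.24% of the Sed libraries, so its threshold was not used, and the alternative removed the 144 to 462 highest-scoring cells of each library. Some genes are not reported here. Positions and promoters came from GENCODE vM21 and RefSeq.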

Additional observations from a re-analysis of the deposited data

Results flagged for a closer look

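The change of S100a4 from Sed to Ex differed between type 1 ILCs and conventional NK cells by 2.77 on the log2 scale, by a test of the difference itself (adjusted p = 0.00134, edgeR). For the noncoding RNA AC163354.1 the difference was 2.95 (adjusted p = 0.00212, edgeR). For both genes the log2 change was higher in type 1 ILCs than in NK cells. In type 1 ILCs alone neither was called (adjusted p = 0.627 and 0.725, edgeR). The S100a4 call was lost without the cells that hold markers of other cell types (difference 2.80, adjusted p = 0.972, edgeR), where that of AC163354.1 was not (2.36, adjusted p = 0.00185, edgeR). Both calls were lost without Ex 1 (adjusted p = 0.194 for each) and without Ex 2 (0.997 for each), with differences of 2.66 to 3.25.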

How the results depend on the processing

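The 9 calls between Ex and Sed became 84 with no filter on low counts, 1 with the stricter rule (marker sum 3, no NK UMI), 1 with sums thinned to the smallest library, and 0 with doublets removed or without the 9 cells, where 150 and 107 genes had an unadjusted p under 0.05. The last alternative was chosen after seeing the data. Leaving out 1 library gave 14 to 119 calls: when Sed 1 was dropped there were 33 (7 of the 9 among them), for Sed 2 19 (1), for Ex 1 119 (8) and for Ex 2 14 (8). In NK cells the 112 calls became 18 with DESeq2, 174 with no filter, 48 without cells holding other markers, and 27 to 444 with 1 library left out. The 2 differences between the populations became 16 with no filter, 7 with the stricter rule, 7 without cells holding other markers, and 0 to 48 with 1 library left out; the 0 was without Ex 2, with 113 genes at an unadjusted p under 0.05. Genes at least 2 times higher in type 1 ILCs numbered 25, and those lower 10, without the cells of either population holding other markers. With the stricter rule 16 were higher, 10 of them shared with the main 16, and 10 were lower. With doublets removed 17 were higher, 13 of them shared. Leaving out 1 library, which asks for the ratio in fewer libraries, gave 20 to 36 higher and 8 to 15 lower. The share of kept cells stayed higher in Ex, by 0.067 to 0.682 points with 1 library left out. The share of type 1 ILCs plus NK cells was 5.04 points lower in Ex, but 2.12 points higher with the stricter rule, and ran from -18.8 to 8.77 points with 1 library left out, being 8.77 without Sed 2 and 3.93 without Ex 1. Gzmc, -2.77 with all libraries, ran from -3.78 without Sed 2 to 2.95 without Sed 1. The causes were not tested. The main test did not pair the samples by replicate number. The deviations of Sed 1 and Ex 1 correlated at r = 0.098, which from sums of so few cells cannot show that no batch was shared. The replicate block gave 64 calls in type 1 ILCs, with Gzma (-1.36, adjusted p = 0.0112, edgeR) and Klrc2 (1.51, adjusted p = 0.0339, edgeR) among them, and 375 in NK cells. Few cells limit all values: Sed 1 rests on 13.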
